A study of Mus musculus with 4 samples.

Results

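Heat shock protein genes encode the chaperones that keep other proteins folded. The 10 genes described here were taken by name, and a gene was counted as having a peak when a peak summit lay inside it or within 1 kb of either end. They are 10 of 21896 protein-coding genes with coordinates in the annotation used. The stress-inducible class held Hspa1a, Hspa1b, Hsp90aa1 and Hsph1, and the constitutive class held Hspa8, Hspa5, Hspa9, Hsp90ab1, Hspd1 and Hspe1. This division follows general knowledge of the family and not a measurement in these cells.

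The series compares where HA-tagged human WDR5 (HA-hWDR5) lies on chromatin in mouse embryoid bodies after rescue at T12h or at T48h. Embryonic stem cells carrying GFP at the Rx locus were used, and both groups lacked mouse Wdr5 and carried the HA-hWDR5 that doxycycline induces. Doxycycline was given at T12h in one group and at T48h in the other, and the zero point of these hours is not stated in the labels. SFEBq culture in medium with 5% KSR formed the embryoid bodies, Matrigel was added to 2% on day 1, and the design places the samples at day 6. Each group had 1 anti-HA ChIP library and 1 input library, so no difference between the times has a replicate check and no p-value is given. The labels name neither the number of clones nor the number of cultures. The labelled cell type was not checked here, because a peak list does not measure expression.

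In stressed cells the heat shock factor HSF1 binds heat shock elements, which are inverted repeats of the unit GAA in the promoters of inducible chaperone genes, and these genes are then transcribed strongly. Constitutive members of the same families are transcribed in unstressed cells and serve folding in the cytosol, the endoplasmic reticulum and the mitochondria. WDR5 is a WD-repeat protein of the complexes that methylate lysine 4 of histone H3, a mark of active promoters, and it also binds the transcription factor MYC.

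The sequences below are the 250 bases before an annotated transcription start, read 5′ to 3′ on the strand of the gene, from RefSeq on GRCm38.p6 (mm10). They show the promoters of the 3 members with a peak, and those of Hspe1 and Hspa5 as members without one. Of the 10 members, 6 had an entry (Hspa1a, Hspa1b, Hsph1, Hspa5, Hspd1 and Hspe1), and Hspa8, Hspa9, Hsp90aa1 and Hsp90ab1 did not. Capitals mark pairs of heat shock units (GAANNTTC or TTCNNGAA), CCAAT boxes (CCAAT or its reverse complement ATTGG) and E-boxes (CACGTG).
Hspa1b (chr17:34959239-34959488, minus strand): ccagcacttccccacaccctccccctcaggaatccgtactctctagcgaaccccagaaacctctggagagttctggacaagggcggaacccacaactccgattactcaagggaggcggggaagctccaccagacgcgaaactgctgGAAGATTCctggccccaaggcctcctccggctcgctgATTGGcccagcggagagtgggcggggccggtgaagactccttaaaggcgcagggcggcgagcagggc
Hspa1a (chr17:34972157-34972406, minus strand): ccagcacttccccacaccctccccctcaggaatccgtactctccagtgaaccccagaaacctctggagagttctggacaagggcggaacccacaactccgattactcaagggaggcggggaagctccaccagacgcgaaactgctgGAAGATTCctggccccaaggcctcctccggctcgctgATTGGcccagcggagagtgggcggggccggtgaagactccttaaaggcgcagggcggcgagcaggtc
Hsph1 (chr5:149636316-149636565, minus strand): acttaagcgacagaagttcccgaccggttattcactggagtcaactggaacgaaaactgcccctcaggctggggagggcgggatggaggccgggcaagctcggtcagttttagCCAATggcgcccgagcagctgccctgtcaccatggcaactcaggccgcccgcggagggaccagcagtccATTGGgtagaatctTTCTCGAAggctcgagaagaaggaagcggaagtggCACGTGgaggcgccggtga
Hspe1 (chr1:55087898-55088147, plus strand): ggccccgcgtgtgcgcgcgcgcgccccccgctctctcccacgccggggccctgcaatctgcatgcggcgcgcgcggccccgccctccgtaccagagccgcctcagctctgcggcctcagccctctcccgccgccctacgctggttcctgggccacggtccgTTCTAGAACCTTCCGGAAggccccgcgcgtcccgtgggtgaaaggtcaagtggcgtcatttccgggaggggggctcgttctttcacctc
Hspa5 (chr2:34771840-34772089, plus strand): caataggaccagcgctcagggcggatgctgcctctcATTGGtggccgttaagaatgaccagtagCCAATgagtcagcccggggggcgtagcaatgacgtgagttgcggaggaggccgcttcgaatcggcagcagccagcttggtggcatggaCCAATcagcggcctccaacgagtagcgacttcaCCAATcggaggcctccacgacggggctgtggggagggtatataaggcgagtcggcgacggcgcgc

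At T12h, 3 of the 10 members had a peak, namely Hspa1b, Hspa1a and Hsph1, against 4.25% of all protein-coding genes. At T48h, 1 of the 10 had a peak, Hspa1b, against 1.69% of all protein-coding genes. Hspa1b was thus the member found at both times, as were 1.08% of protein-coding genes. Its T48h peak was not among the upper 50% of the list by score or the peaks with an FDR of at most 5%, which left 0 members at T48h and at both times, and overlap of 50% of both peaks also left 0. That FDR limit kept 141 of the 660 T48h peaks. All 3 genes belong to the stress-inducible class, of which 3 of 4 had a T12h peak and 1 of 4 a T48h peak. At T12h alone there were 2 members, Hspa1a and Hsph1, beside 3.17% of protein-coding genes, and at T48h alone 0, beside 0.607%. Of the 6 constitutive members, 0 had a peak at either time. Their class name does not mean that stress cannot induce them. Hspd1 and Hspe1 hold a heat shock element of 3 units and Hspa5 an endoplasmic reticulum (ER) stress element, as described below. No setting that moved these genes to the stress-inducible class was tried. Hspa1a and Hspa1b are close copies of each other, so the 3 genes with a peak are not independent cases. Which of the pair has a listed peak at a given time may depend on where shared tags were placed.

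**Figure D1:**
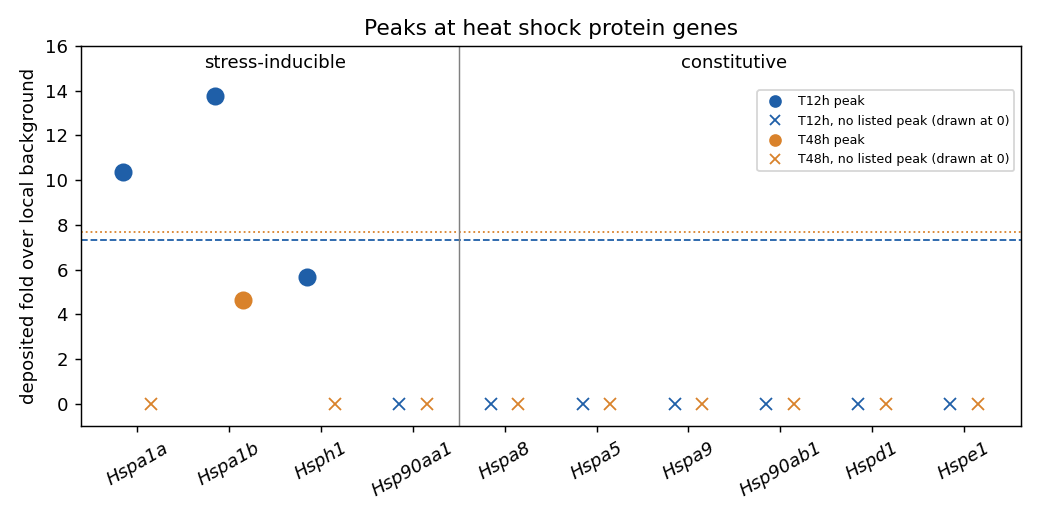
Deposited fold over the local background for the peak at each of the 10 heat shock protein genes, at T12h (blue) and T48h (orange). Crosses drawn at 0 stand for genes without a listed peak and are no measurement, and the dashed and dotted lines are the median folds of the T12h list (7.31) and the T48h list (7.66). Hspa1b and Hspa1a at T12h lie above the medians, and Hsph1 at T12h and Hspa1b at T48h lie below them.

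The files give for each peak a tag count, a score, a fold and a false discovery rate (FDR), all made by the authors with MACS. The score is -10 times log10 of the p-value for the tags against the local background, so a higher score is a stronger call. The fold is the ratio of ChIP tags to the local background, and the FDR, in percent, compares these calls with calls made after ChIP and control were swapped. The FDR did not simply follow the score, as the T12h peak at Cct4 had rank 5 by score and an FDR of 20.0%. The T12h list held 1197 peaks from 55539917 filtered tags, and the T48h list held 660 peaks from 67116740 filtered tags. No peak lay at Wdr5 itself at either time, which does not test its loss.

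Hspa1b, which encodes the stress-induced HSP70 of the cytosol and nucleus, had the strongest peak of the members. The gene spans 2.81 kb of chromosome 17 (34956429 to 34959238, gene ID 15511) on the minus strand. At T12h its peak (34958635 to 34959414) was 780 bp wide and held 103 tags (95% Poisson interval 84.1 to 125, counting error only). Its score was 404.23, its fold 13.74 and its FDR 3.15%. By score it stood at rank 127 of 1197, within the upper 10.6% of the list. Both its fold and its width were above the list medians, which were 7.31 and 359 bp.

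At T48h the Hspa1b peak was weaker and narrower. It spanned 34958993 to 34959365, was 373 bp wide and held 38 tags (interval 26.9 to 52.2). Its score was 56.55, close to the lowest score in the T48h list (50.02), and its rank was 458 of 660. Its fold was 4.62, and 60 of the 660 T48h peaks had a lower fold. Its FDR was 13.54%, beside list medians of 9.62% at T48h and 3.0% at T12h. Its width and tags were above the T48h medians of 297 bp and 32.5 tags. The T48h peak lay wholly inside the T12h peak and covered 47.8% of it.

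The fold at Hspa1b was 2.97 times as high at T12h as at T48h. Across the 224 pairs of peaks found at both times the median ratio was 1.47, with quartiles of 1.24 and 1.84, and 5 pairs had a ratio at least as high as that of Hspa1b, itself included. The ratio of tag density was smaller. At T12h the Hspa1b peak held 2.38 tags per kb per 1000000 filtered tags and at T48h 1.52, a ratio of 1.57 against a median of 1.48 over the pairs. The densities are averages over peaks of different width, 780 and 373 bp, so they do not cover the same region. By density, 88 of the 224 pairs had a ratio at least as high, so Hspa1b stood near the edge of the pairs by fold and near their middle by density.

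**Figure D2:**
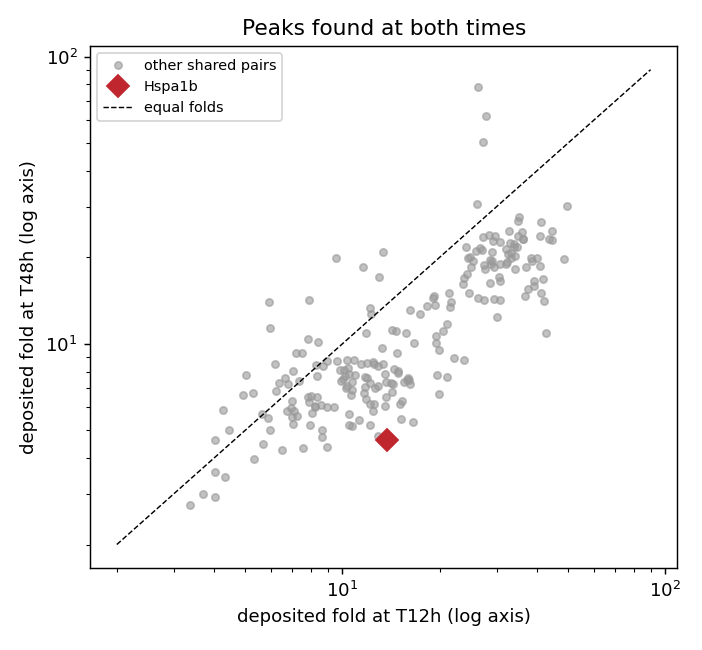
Deposited fold at T12h (horizontal, log axis) against T48h (vertical, log axis) for the 224 pairs of overlapping peaks, with Hspa1b as a red diamond and the line of equal folds dashed. Hspa1b (13.74 and 4.62) lies below the line at the lower edge of the pairs with a similar T12h fold, and 192 of the pairs had a higher fold at T12h.

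Hspa1a, which encodes an HSP70 nearly identical to that of Hspa1b, had a peak in the T12h list and none in the T48h list. The gene spans 2.80 kb of chromosome 17 (34969359 to 34972156, gene ID 193740), also on the minus strand. Its T12h peak (34971534 to 34972365) was 832 bp wide and held 97 tags (interval 78.7 to 118), with a score of 255.61, a fold of 10.37 and an FDR of 2.16%. That placed it at rank 185 of 1197. The peak held 117 tags per kb (interval 94.5 to 142) and the T12h peak of Hspa1b 132 (interval 108 to 160), so these intervals overlap. At T48h the nearest listed summit was that of Hspa1b, 10.2 kb away. The T12h summit of Hspa1a also lay 641 bp from Hspa1l, a neighbouring HSP70 gene known for expression in the testis, and the same peak counts for both genes.

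The promoters of Hspa1a and Hspa1b are so alike that part of their tags cannot be told apart. Over the 300 bases from 250 before to 50 after the start they matched at 296, or 98.7%. From Hspa1a to Hspa1b the differences were C44T, T47C, T249G and C276T, counted from 1 at the first base printed above, with position 276 after the start. The tags were 50 bases long at T12h, and 152 of the 251 windows of 50 bases in this stretch were the same in both genes. At T48h the tags were 49 bases long, and 153 of the 252 windows of that length were the same. Both T12h summits and most of each T12h peak lie downstream of this stretch, where the likeness was not measured. How the alignment placed tags that match both genes is not given in the sources used here. A tag from one gene can therefore have been counted at the other, and the tag counts of the pair are uncertain on this account. The same holds for which of the pair has a listed peak at each time, including Hspa1a at T12h alone.

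Hsph1, which encodes the large HSP110 chaperone that acts as a nucleotide exchange factor of HSP70, had the weakest T12h peak of the members. The gene spans 19.7 kb of chromosome 5 (149616843 to 149636498, gene ID 15505) on the minus strand. Its peak (149635923 to 149636520) was 598 bp wide and held 53 tags (interval 39.7 to 69.3), with a score of 111.4, a fold of 5.65 and an FDR of 2.53%. It stood at rank 395 of 1197 by score. Its width was above the list median and its fold below it, and 240 of the T12h peaks had a lower fold. At T48h the nearest listed summit was 4753 kb from the gene.

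All 4 member peaks lay across a transcription start, with the summit a short way into the gene. At T12h the summit was 75 bp downstream of the Hspa1b start and 94 bp downstream of the Hspa1a start. At T48h the Hspa1b summit was 45 bp downstream. Hsph1 has 2 annotated starts in the promoter entries, and its summit lay 74 bp downstream of one and 53 bp downstream of the other. The annotated span of Hsph1 begins farther upstream, at 149636498, which is 236 bp from the summit. The place of this summit thus depends on the start used, and part of the printed Hsph1 window lies inside the gene span. The T12h peak of Hspa1b reached from 176 bp before the start to 603 bp after it, and that of Hspa1a from 209 bp before to 622 bp after. The T48h peak of Hspa1b reached from 127 bp before to 245 bp after, so it was shorter on both sides and mostly on the side of the gene.

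**Figure D3:**
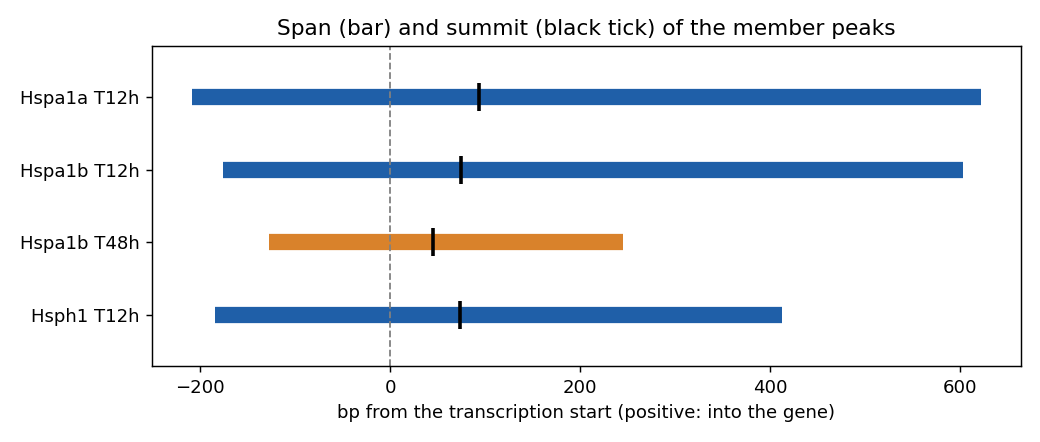
Span (bar) and summit (black tick) of the 4 member peaks, in bp from the transcription start (dashed line, positive into the gene), at T12h (blue) and T48h (orange). For Hsph1 the farther upstream of the 2 starts in the promoter entries was used, not the end of the gene span. All 4 bars cross the start used, with summits between 45 and 94 bp downstream of it.

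The summits of all peaks were placed relative to the nearest annotated protein-coding start. Of the T12h peaks, 510 (42.6%) had a summit within 1 kb of an annotated protein-coding start, and of the T48h peaks 168 (25.5%). The median summit position was 75.5 bp downstream at T12h, with quartiles of 152 bp upstream and 244 bp downstream, and 133 bp downstream at T48h. Summits lay downstream of the start in 62.2% of these peaks at T12h and in 67.9% at T48h. Summits from 40 to 100 bp downstream made up 11.4% of these peaks at T12h and 7.14% at T48h, or 4.85% and 1.82% of all peaks in the lists. This stretch was set around the member summits, so their place in it is no finding.

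**Figure D4:**
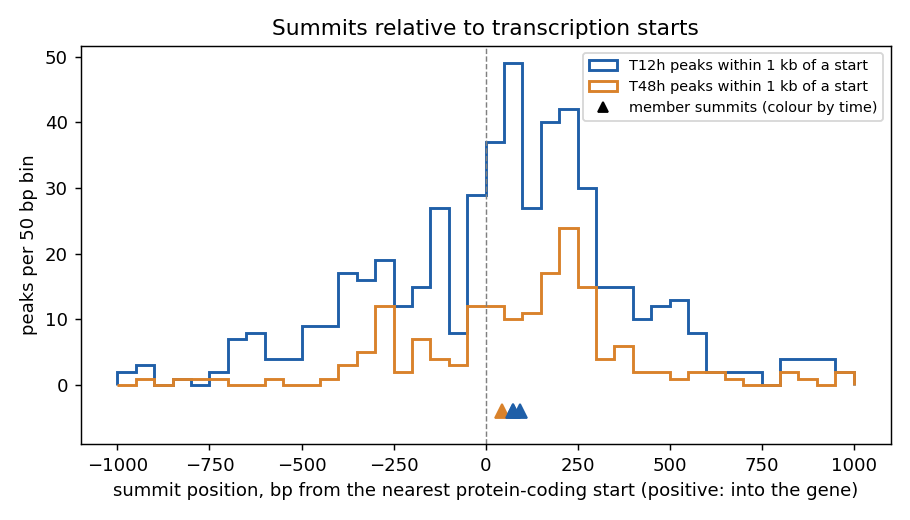
Number of peaks per 50 bp bin by summit position relative to the nearest protein-coding start (positive into the gene), for the 510 T12h peaks (blue) and 168 T48h peaks (orange) within 1 kb of a start. Triangles below 0 mark the summits of the 4 member peaks, which sit between 45 and 94 bp, near the T12h median of 75.5 bp. The Hsph1 triangle uses the start farther upstream (74 bp), and its nearest start gives 53 bp.

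Hsp90aa1 was the stress-inducible member without a peak. It encodes the inducible HSP90 of the cytosol, which matures kinases and steroid receptors, and spans 5.36 kb of chromosome 12 (110691036 to 110696395, gene ID 15519). The nearest listed summits were 205 kb away at T12h and 99.5 kb away at T48h.

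The constitutive members of the cytosol also lacked a listed peak. Hspa8 encodes HSC70, the constitutive HSP70 that also uncoats clathrin vesicles, and it spans chromosome 9 from 40801276 to 40805202 (gene ID 15481). Its nearest summits were 1085 kb away at T12h and 247 kb at T48h. Hsp90ab1 encodes the constitutive HSP90 and lies on chromosome 17 (45567778 to 45573261, gene ID 15516), the chromosome of Hspa1a and Hspa1b. Its nearest summits were 314 kb away at T12h and 134 kb at T48h.

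Among the members that serve organelles, Hspa5 came closest to a peak, and it was still far from one. Hspa5 encodes BiP, the HSP70 of the endoplasmic reticulum, and spans chromosome 2 from 34772090 to 34776529 (gene ID 14828). Its nearest summit was 49.8 kb away at T12h, with a fold of 5.25, and 159 kb away at T48h. Hspa9 encodes mortalin, the HSP70 of the mitochondrial matrix (gene ID 15526). Its nearest summits were 282 kb away at T12h and 4460 kb at T48h. Hspd1 and Hspe1 encode HSP60 and its partner HSP10, which form the folding chamber of the mitochondrial matrix, and lie head to head on chromosome 1. Their annotated spans (55077833 to 55088243 and 55088148 to 55091317) overlap, so they have 1 promoter region between them and are not independent. The nearest summits were 639 kb from Hspd1 and 649 kb from Hspe1 at T12h, and 1882 and 1892 kb at T48h. A gene without a listed peak had no region past the authors' cutoff in the lists used here, and this does not show that HA-hWDR5 was absent there.

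By exact letters, the longest heat shock element in the promoters searched lay at members without a peak. The element of 3 units, searched as GAANNTTCNNGAA on both strands in the 250 bases before a start, was found at Hspd1 and Hspe1, which had no peak. It is the same DNA for both genes, chr1:55088059-55088076, where 2 overlapping matches form a run of 4 units (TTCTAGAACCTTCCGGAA in the Hspe1 sequence above). Over 21262 annotated starts of protein-coding genes, 0.386% held a match of 3 units. By the same exact search the 3 members with a peak held a pair of units. It was GAAGATTC from 104 to 97 bp before the start at both Hspa1a and Hspa1b. At Hsph1 it was TTCTCGAA, from 54 to 47 bp before its downstream start. Longer runs with a changed letter, as after the Hsph1 pair above, were not counted. Runs with a gap, as before the pair at Hspa1a and Hspa1b, were not counted either. The search therefore does not show that these promoters hold shorter elements. A pair of units (GAANNTTC or TTCNNGAA, which also lie within each match of 3 units) was found at 11.8% of all starts. Hspa5 held neither, but it held an ER stress element (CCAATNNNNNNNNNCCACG), the sequence of genes that respond to misfolded protein in the endoplasmic reticulum, from 65 to 47 bp before the start. That element was found at 0.132% of all starts.

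Other promoter elements were found on both sides of the division. CCAAT boxes, which 35.4% of all starts held, occurred once each at Hspa1a and Hspa1b, at 2 positions in Hsph1 and at 4 in Hspa5, and the last of these 4 is part of the ER stress element. The GC box GGGCGG, searched on both strands, was present at each of the 6 members with an entry and at 42.6% of all starts. The E-box CACGTG, a sequence that MYC can bind, was found from 19 to 14 bp before the downstream start of Hsph1, from 80 to 75 bp before the upstream start of Hspd1 and at 6.63% of all starts. Hsph1 had a T12h peak and Hspd1 had none, so the E-box occurred with and without a peak. The strict TATA box letters TATAAA were in none of the 6 members' windows and in 11.6% of all starts. A match is a description of the letters and shows no binding by a factor.

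Other genes of the heat shock and folding system were counted by lists. Of 109 such genes with coordinates, 14 had a peak at T12h (12.8%, beside 4.25% of all protein-coding genes), 5 at T48h (4.59%, beside 1.69%) and 4 at both times. Without the chaperonin genes these were 11 of 101 at T12h and 3 of 101 at T48h. The lists were chosen with earlier results of these data known, so the higher shares are a description and no test. Both T12h counts include Hspa1l, reached by the peak of Hspa1a, and Lonp1, reached by a peak that also lay at Rpl36. Both T48h counts include Lonp1, again with Rpl36, and Dnajc30, whose peak also lay at Bud23. Hspa1l, also counted below among the further HSP70 and HSP110 genes, is thus not separate from the members. The 5 genes for heat shock factors and their binding protein had 0 peaks at either time, and the 10 small heat shock protein genes also had 0. By list, 2 of 9 further HSP70 and HSP110 genes, 1 of 2 further HSP90 genes, 2 of 16 further genes of endoplasmic reticulum stress and 2 of 5 further mitochondrial genes had a T12h peak, and some genes are in more than 1 list.

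Among the partners of HSP70 and HSP90, Tomm70a was the gene with a peak at both times. Of 36 DNAJ genes, which encode the J-domain partners of HSP70, 2 had a peak at T12h (5.56%, beside 4.25% of all protein-coding genes) and 1 at T48h (2.78%, beside 1.69%), and none had both. Dnajb1, the stress-inducible partner of HSP70, had a T12h peak with 33 tags, a score of 55.25 and a fold of 4.95. That peak, at rank 964 of 1197 with an FDR of 7.68%, was near the lowest T12h score of 50.01 and also lay at Gm42029. Dnajc27 had a T12h peak with a fold of 4.36, and Dnajc30 a T48h peak with a fold of 6.43 that also lay at Bud23. The Dnajc30 peak, the only DNAJ peak at T48h, had a score of 51.09 (lowest in the list 50.02), rank 617 of 660 and an FDR of 21.23%. Of 24 other co-chaperone genes, 4 had a T12h peak (16.7%) and 1 a T48h peak (4.17%), beside the same shares of all genes. Tomm70a, which encodes the mitochondrial import receptor that receives clients from HSP70 and HSP90, had the strongest of these, with 151 tags and a fold of 19.47 at T12h and 121 tags and a fold of 10.63 at T48h. At T12h alone there were peaks at Unc45a, a myosin chaperone that works with HSP90 (fold 7.49), Ptges3, the HSP90 co-chaperone p23 (6.16), and Bag4, an HSP70 regulator (6.53), whose peak also lay at Lsm1. The Bag4 peak had a score of 54.74 and rank 980 of 1197, also near the lowest score.

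Organelle chaperones outside the members also had peaks at T12h. Hyou1, the HSP110 relative of the endoplasmic reticulum, had a fold of 5.46, Pdia4, a disulfide isomerase, 8.03, and Trap1, the mitochondrial HSP90, 7.07, beside a median fold of 7.31 in the T12h list. Each of these was found at T12h alone, and their scores of 76.09, 53.27 and 54.2 lay below the T12h median of 77.4. The scores of Pdia4 and Trap1 were near the lowest in the list, 50.01, and their FDRs were 10.08% and 9.04%. Lonp1, a mitochondrial protease, was within reach of a strong peak (fold 28.85 at T12h and 19.01 at T48h), which also lay at the ribosomal protein gene Rpl36. Of the 8 chaperonin subunit genes, 3 had a T12h peak, beside 4.25% of all protein-coding genes, and 2 a T48h peak, beside 1.69%. Cct4 (fold 42.67 at T12h and 10.92 at T48h) and Cct7 (27.31 and 23.52) had higher folds than any heat shock protein gene at the same time, and Cct2 had 7.88 at T12h alone. At both times the Cct7 peak also lay at Pradc1, so its folds cannot be assigned to Cct7 alone.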

How the data were processed

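HA-hWDR5 ChIP-seq peaks of 2 libraries were analysed. Per the file headers, the authors called peaks with MACS 1.4.2 on 1 ChIP library against 1 control library at each time, with a p cutoff of 1e-05 and 1 tag kept per position, and scaled the larger dataset to the smaller. The submitters' processing notes also list mm10, deepTools, HOMER 4.9.1, SAMtools 1.5 and Bowtie2. The authors deposited for each peak a tag count (not normalised), a score (-10 times log10 of the p-value), a fold ratio over the local background and an FDR in percent. Per the file headers, 90473125 tags were read at T12h and 124280184 at T48h. Intervals cover counting error only.

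Summits (start + summit - 1) were placed on RefSeq GRCm38.p6 genes in Python 3.11.15 (pandas 2.3.3, numpy 2.4.6, scipy 1.17.1), and matplotlib 3.10.9 drew the figures. Starts and strands came from the RefSeq promoter entries. Peaks were a pair when they overlapped by at least 1 bp. On simulated summits, 100 of 100 within the distance and 0 of 100 beyond it were assigned. The members and lists were chosen with earlier results of these data known. All 10 members were named, and of the other lists up to 6 genes with a peak, and 2 listed genes had no coordinates and were left out. Exon positions were not used here. Distance, score, list length, gene counting, class and motif alternatives were tried. Reads and a genome sequence were not analysed here.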

Additional observations from a re-analysis of the deposited data

How the results depend on the processing

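The 3 members with a peak at T12h stayed 3 in number at 500 bp, at 5 kb, with any base of the peak, with the nearest gene alone, in the upper 50% of the list by score, with the T12h list cut to 660 peaks, at gene ends alone and at an FDR of at most 5%. The last 2 settings were chosen after the data were seen. The single T48h member, Hspa1b, was lost in the upper 50% by score and at an FDR of at most 5%, which left 0 members, 0 stress-inducible members and 0 members at both times. That FDR limit kept 141 of the 660 T48h peaks and 813 of the 1197 T12h peaks. Requiring overlap of 50% of both peaks also left 0 members with overlapping peaks. With Hspa1a and Hspa1b alone as stress-inducible, 1 of the other members (Hsph1) had a T12h peak. A wider stress-inducible class was not tried. The ratio at Hspa1b, 2.97 by fold, was 1.57 by tag density. Its rank as a percent of the list was 6.55 times as far down at T48h, which shows no change at the gene, since the lists differ in length and content. The share of protein-coding genes with a peak was 2.61% and 1.07% in the upper 50% by score for T12h and T48h, 2.81% for the shortened T12h list, and for T48h 1.06% at gene ends and 0.571% at the stricter FDR. A pair of units in place of 3 raised the members with a heat shock element from 2 to 5 of the 6 with a promoter entry. The share of starts rose from 0.386% to 11.8%, since fewer letters must match. Hspd1 and Hspe1 share 1 stretch of DNA, and Hspa1a and Hspa1b are close copies, so these members are not separate cases. The changed shares follow from fewer peaks or summits counted, and for the ratio at Hspa1b the cause was not tested. No paired analysis was possible because 1 library stood for each rescue time.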

Other observations

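Starts within 1 kb of a peak summit differed from other starts in some promoter letters, given here as values without a test. The E-box CACGTG lay before 94 of the 658 starts with a T12h peak (14.3%), against 6.39% of the starts without one, and before 23 of the 227 starts with a T48h peak (10.1%), against 6.59%. The GC box GGGCGG lay before 59.7% of starts with a T12h peak, against 42.1%, and before 60.4% with a T48h peak, against 42.4%. TATAAA was found before 5.78% of starts with a T12h peak, against 11.8%, and before 6.61% with a T48h peak, against 11.7%. Pairs of heat shock units were found before 11.2% of starts with a T12h peak, against 11.8%, and before 13.2% with a T48h peak, against 11.7%. Runs of 3 units lay before 5 of the 658 starts with a T12h peak (0.76%), against 0.374%, and before 4 of the 227 with a T48h peak (1.76%), against 0.371%. Starts of 1 gene can overlap, and base composition was not matched between these sets.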
